A study of Mus musculus with 24 samples.

Results

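The 37 type I interferon response genes described here were taken by symbol from a list of genes known to respond to these cytokines. That list and the other gene lists used below were chosen with earlier results of these data known. Their shares beside all tested genes are therefore descriptions and not independent support. Each of the 37 genes is present in the table of 22429 genes. The 37 all passed the filter on low counts that left 12211 genes for testing. Ribosome footprints, the mRNA fragments shielded by translating ribosomes, were counted per gene in 24 livers of male F1 hybrid C57BL6J/FVBN mice, in 6 groups of 4. The mutants, Ercc1 d/-, carry 1 null and 1 truncated allele of Ercc1. The protein it encodes pairs with XPF to cut damaged DNA during repair, and mice that lack it age early. The mutant groups were restricted mutants at 16 weeks, mutants fed ad libitum at 16 weeks and mutants fed ad libitum at 7 weeks. The wild types, Ercc1 +/+, were fed ad libitum at 104 weeks, restricted at 16 weeks, or fed ad libitum at 16 weeks. Restriction started at 7 weeks with 10% less food and stood at 30% from 9 weeks. All mice were kept singly on synthetic pellets, and none was fed on the day of collection.

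Type I interferons are secreted cytokines that cells make when receptors for foreign or misplaced nucleic acid are triggered. They bind the receptor of IFNAR1 and IFNAR2, which activates the kinases JAK1 and TYK2, and a transcription factor complex that holds STAT2 and IRF9 then switches on genes with an interferon-stimulated response element in their promoter. The products of these genes degrade viral RNA, block translation, trap virus particles or sense more nucleic acid, and several of them dampen the pathway again. In liver, hepatocytes, Kupffer cells, which are the resident macrophages, and endothelial cells can all respond.

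Each library held 13366558 to 27084259 counts. The deleted gene went with the labels, with 1 to 15 counts of Ercc1 per library in the 12 mutants, against 34 to 110 in the 12 wild types. The 7 hepatocyte markers, such as albumin, together held at least 93446 CPM (counts per 1e+06 counts of the library) in every library, so the tissue matched its label. The labels do not say that the 4 libraries of a group came from separate litters or runs, so p-values measure the spread between these libraries only. In whole liver, fewer cells of a type and less RNA per cell cannot be told apart. The mRNA libraries of the same livers were not used here, so a footprint change is not split into mRNA level and translation. CPM are not corrected for gene length, and levels are therefore not compared between genes.

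The promoters of 5 members followed through every comparison are shown first, each of which holds a match of the response element's core. RefSeq's promoter table (GRCm38.p6, 250 bases before to 50 after each start) held 27 of the 37 members. The stretches below are the 160 bases before the start, on the gene's strand, and capitals mark each match, on either strand, of the core of the interferon-stimulated response element. That core was searched as GAAA, any 2 bases and GAAA, or its reverse complement. They are Isg15 (chr4:156200819-156200978, minus strand), Oas1a (chr5:120907526-120907685, minus), Ifit1 (chr19:34640729-34640888, plus), Ifit3 (chr19:34583369-34583528, plus) and Rsad2 (chr12:26456453-26456612, minus).
Isg15: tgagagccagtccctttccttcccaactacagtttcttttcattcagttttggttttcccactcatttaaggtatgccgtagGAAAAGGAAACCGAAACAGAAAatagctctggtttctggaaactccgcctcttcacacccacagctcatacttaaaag
Oas1a: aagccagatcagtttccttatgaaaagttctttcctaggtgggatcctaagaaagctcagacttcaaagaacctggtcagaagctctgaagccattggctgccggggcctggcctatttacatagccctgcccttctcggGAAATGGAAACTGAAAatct
Ifit1: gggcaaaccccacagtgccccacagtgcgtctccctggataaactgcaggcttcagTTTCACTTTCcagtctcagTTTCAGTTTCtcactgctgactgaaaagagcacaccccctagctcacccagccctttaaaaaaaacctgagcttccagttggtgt
Ifit3: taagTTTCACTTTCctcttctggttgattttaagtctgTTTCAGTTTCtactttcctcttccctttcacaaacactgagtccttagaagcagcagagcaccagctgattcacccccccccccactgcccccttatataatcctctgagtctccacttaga
Rsad2: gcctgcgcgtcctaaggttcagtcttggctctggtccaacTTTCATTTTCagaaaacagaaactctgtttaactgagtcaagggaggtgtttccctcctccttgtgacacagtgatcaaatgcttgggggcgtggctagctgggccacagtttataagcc

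Isg15 held 3 overlapping matches that begin 78, 72 and 66 bases before its start, Oas1a 2 overlapping ones at 20 and 14 bases, Ifit1 2 at 104 and 85 bases, Ifit3 2 at 156 and 122 bases and Rsad2 1 at 120 bases. The other followed members with an entry are not shown. Of these, Irf7 and Irf9 held no match, Stat2 held 1 at 222 bases before its start and Ddx58 held 1 just after its start. Over the whole 300-base window, the core occurred in 16 of the 27 members, or 59.3%, against 3.99% of the 27025 genes in the promoter table. A longer form, the core followed directly by CT, so that each match contains a match of the core, occurred in 9 of the 27 members (33.3%) against 0.303% of genes. The gamma-activated site TTCNNNGAA, the element of the interferon gamma response, occurred in 7 of the 27 members (25.9%) against 9.55% of genes. A match is a description of the letters and not a site shown to be in use.

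Averaged over the 37 members, the mutant livers stood above the wild-type livers, with 1 restricted mutant close to them. The level of a library was its mean log2 CPM over the members minus the mean of the fed wild types at 16 weeks. It ran from 0.26 to 1.52 in restricted mutants, from 0.93 to 1.51 in fed mutants at 16 weeks and from 0.95 to 1.31 in mutants at 7 weeks. It ran from -0.20 to 0.37 in wild types at 104 weeks, from -0.39 to 0.15 in restricted wild types and from -0.29 to 0.17 in fed wild types at 16 weeks. Fed mutants at both ages therefore did not overlap any wild-type group, while the lowest restricted mutant lay below the highest old wild type. That library, restricted mutant replicate 1, was the lowest of its group in 34 of 37 members, and restricted mutant replicate 3 was the highest in 26. Replicate 3 also stood apart in bile duct markers, with Krt19 at 32.2 CPM against 1.42 to 2.03 CPM in the other restricted mutants and Epcam at 3.47 CPM against 0.208 to 0.520 CPM, and the part of that in its member levels was not tested. The members' spread within a group was widest in relative terms in restricted wild types, where the median coefficient of variation was 40.6%, and it was 37.5% in restricted mutants and 18.8% in fed wild types at 16 weeks. It was 16.9% in mutants at 7 weeks, 26.7% in fed mutants at 16 weeks and 35.2% in old wild types.

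**Figure D1:**
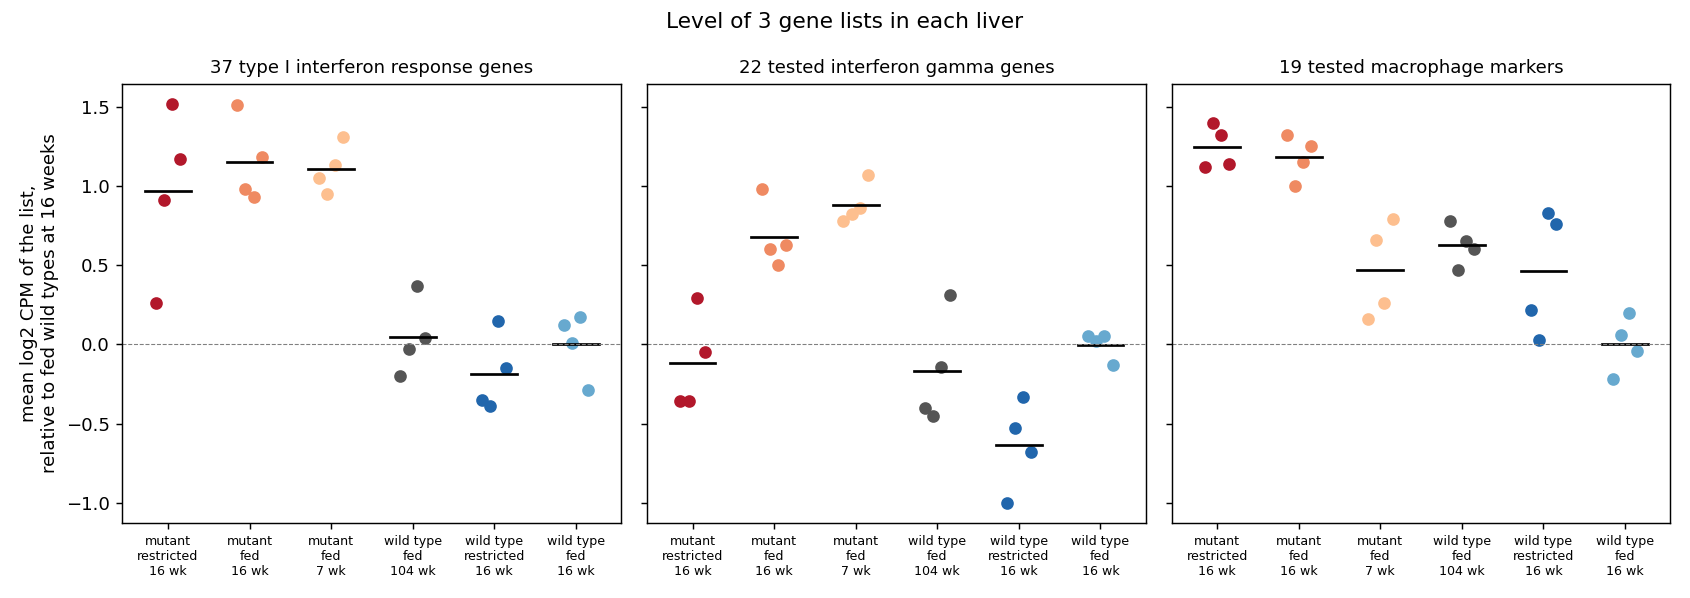
Mean log2 CPM of 3 gene lists in each liver, relative to the mean of fed wild types at 16 weeks (dashed line), with 1 point per library, replicates 1 to 4 from left to right, and a bar for each group's mean. The 37 interferon members are on the left, genes mainly induced by interferon gamma in the middle and macrophage markers on the right. The members' points of fed mutants lie between 0.93 and 1.51, above the wild types, whose highest point is 0.37, and restricted mutant replicate 1 lies at 0.26.

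Fed mutants at 16 weeks were compared with fed wild types of the same age to ask what the mutation does to these genes with age and diet held equal. Of the 37 members 19 rose and 0 fell (edgeR quasi-likelihood test, adjusted p under 0.05), where 5.69% of all tested genes rose, 5.04% fell and 10.7% changed in either direction. The median log2 change of the members was 1.12, against 0.01 over all tested genes. In 29 members every mutant library lay above every wild-type library, which was so for 10.9% of all tested genes. The largest rise was that of Usp18, and the members that did not pass included Stat2, Bst2 and the Parp9 and Dtx3l pair. The macrophage markers moved with the members here, with 15 of 19 tested markers higher and a mean log2 level of 1.00 to 1.32 in fed mutants, against -0.22 to 0.20 in fed wild types. None of the 20 macrophage markers was at 0 in all 24 libraries, but Itgam held at most 3 counts in any group. Trem2 held 13 counts in the fed wild types at 16 weeks. The macrophage markers' part in the members' rise was not tested.

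Among the brakes and modifiers, Usp18 is the protease that removes ISG15 from proteins and also blocks the interferon receptor. It had 18.8, 8.54, 11.1 and 11.9 CPM in fed mutants at 16 weeks, against 0.705, 0.919, 1.04 and 0.827 CPM in fed wild types. The lowest mutant was thus well above the highest wild type, and the fitted difference was 14.2-fold (log2 3.83 ± 0.36, edgeR adjusted p = 7.84e-08). Isg15, the ubiquitin-like protein that interferon attaches to other proteins, had 23.5, 11.7, 12.9 and 16.9 CPM in fed mutants, against 6.42, 6.56, 6.68 and 2.73 CPM in fed wild types. All mutants were higher, with a log2 change of 1.51 ± 0.34 (edgeR adjusted p = 0.00549). Rtp4, which in mice restrains the interferon response to virus and parasite infection, rose by log2 1.57 ± 0.49. Trim25, the ubiquitin ligase that works with the RNA sensor RIG-I, had 137 CPM in fed mutant replicate 1 and 49.6 to 59.5 CPM in the other fed mutants, against 70.0 to 75.6 CPM in fed wild types. It did not pass the test (log2 0.06 ± 0.34, edgeR adjusted p = 0.946).

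The oligoadenylate synthetases, which make the messenger that activates RNase L, formed the block with the highest median change, log2 2.11 over 6 genes with the RNA-activated kinase included. Oas1a had 10.1, 6.17, 6.73 and 11.2 CPM in fed mutants at 16 weeks, against 2.31, 1.65, 1.88 and 0.993 CPM in fed wild types. The groups lay far apart, and the log2 change was 2.28 ± 0.28 (edgeR adjusted p = 3.71e-06). Oas3 rose by log2 2.32 ± 0.48, and so did Oasl1 (1.94 ± 0.50) and Oasl2 (1.52 ± 0.44), relatives of the synthetases of which Oasl1 in mice restrains the translation of Irf7. Oas2 rose by log2 2.44 ± 0.69 on 80 counts in fed mutants, against 16 counts in fed wild types, and by 3.23 without fed wild-type replicate 1. Eif2ak2, the kinase PKR that halts translation on double-stranded RNA, was above every wild type in all mutants without passing (log2 0.49 ± 0.23, edgeR adjusted p = 0.182). Close paralogs such as Oas1a and Oas1g, or Ifit3 and Ifit3b, can share reads, and how such reads were counted is not given in the sources used here.

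Of the transcription factors, Irf7, which amplifies interferon production, had 8.50, 5.59, 4.87 and 5.45 CPM in fed mutants, against 3.33, 3.00, 2.20 and 0.910 CPM in fed wild types. The groups did not overlap (log2 1.33 ± 0.34, edgeR adjusted p = 0.0117). Irf9, the DNA-binding part of the interferon complex, rose by log2 1.31 ± 0.30, with 43.8 CPM in fed mutant replicate 1 and 16.7 to 23.1 CPM in the other mutants, against 8.85 to 11.8 CPM in fed wild types. Stat2, its partner, averaged 58.6 ± 22.9 CPM in fed mutants and 34.7 ± 3.39 CPM in fed wild types (SD, n = 4 each) and did not pass (edgeR adjusted p = 0.109). The sensors of viral RNA and DNA were higher in every fed mutant than in every fed wild type, all 4 of them, but only Ifih1, the receptor MDA5 for long double-stranded RNA, passed. Ifih1 averaged 50.4 ± 4.26 CPM in fed mutants and 26.9 ± 4.10 CPM in fed wild types (SD, n = 4 each; log2 0.90 ± 0.23, edgeR adjusted p = 0.0108). Ddx58, which encodes RIG-I, stood at log2 0.65 ± 0.26, Dhx58 at 0.61 ± 0.33 and Zbp1, the sensor of left-handed nucleic acid, at 1.07 ± 0.39, with edgeR adjusted p of 0.121, 0.272 and 0.0817.

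Among the IFIT proteins, which bind foreign RNA ends and block its translation, Ifit2 rose by log2 1.53 ± 0.48 (edgeR adjusted p = 0.0398). Ifit3 had 18.4, 8.91, 7.77 and 11.4 CPM in fed mutants, against 5.13, 5.70, 5.68 and 4.72 CPM in fed wild types. Ifit1 had 11.2, 5.59, 3.50 and 6.43 CPM in fed mutants, against 1.80, 3.00, 2.68 and 2.15 CPM in fed wild types. Neither overlapped between the groups, and both missed the threshold, at log2 1.12 ± 0.37 for Ifit3 and 1.47 ± 0.54 for Ifit1 (edgeR adjusted p = 0.0528 and 0.0874). Of the 7 GTPases 3 passed. Gbp3 averaged 7.16 ± 0.271 CPM in fed mutants and 2.95 ± 0.314 CPM in fed wild types (SD, n = 4 each; log2 1.27 ± 0.24, edgeR adjusted p = 0.000774). Gbp2, like Gbp3 a guanylate-binding protein that attacks the membranes around intracellular pathogens, rose by log2 1.31 ± 0.29, and Mx2, a dynamin-like antiviral protein, by 1.57 ± 0.43. Gbp7, Irgm1 and Igtp lay between log2 0.49 and 0.59, and Mx1, which is defective in many laboratory strains, held 38 counts in fed mutants, against 19 counts in fed wild types.

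The remaining effectors were mixed. Ifi27, a small membrane protein of mitochondria and the nuclear envelope, had 109, 103, 117 and 123 CPM in fed mutants, against 48.8, 62.2, 46.0 and 43.7 CPM in fed wild types. The change was tight, at log2 1.17 ± 0.14 (edgeR adjusted p = 3.47e-06). Ifi44 had 3.93, 3.22, 3.39 and 4.20 CPM in fed mutants, against 1.14, 0.429, 0.800 and 0.414 CPM in fed wild types (log2 2.33 ± 0.35, edgeR adjusted p = 6.64e-05). Xaf1, a promoter of apoptosis, rose by log2 1.83 ± 0.37 (edgeR adjusted p = 0.00166). Rsad2, the enzyme viperin that makes a chain-terminating nucleotide, had 6.60, 1.79, 4.43 and 2.81 CPM in fed mutants, against 1.41, 1.90, 3.00 and 1.24 CPM in fed wild types. Its groups overlapped, and it did not pass (log2 1.01 ± 0.42, edgeR adjusted p = 0.133). Cmpk2, the mitochondrial nucleotide kinase that lies next to Rsad2 in the genome, stood at log2 -0.25 ± 0.44, and Bst2, which tethers virus particles to the cell surface, at 0.56 ± 0.20. Parp14, an ADP-ribosyltransferase, rose by log2 0.85 ± 0.26, while Parp9 and its partner ligase Dtx3l stood at 0.15 ± 0.18 and 0.02 ± 0.21.

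**Figure D2:**
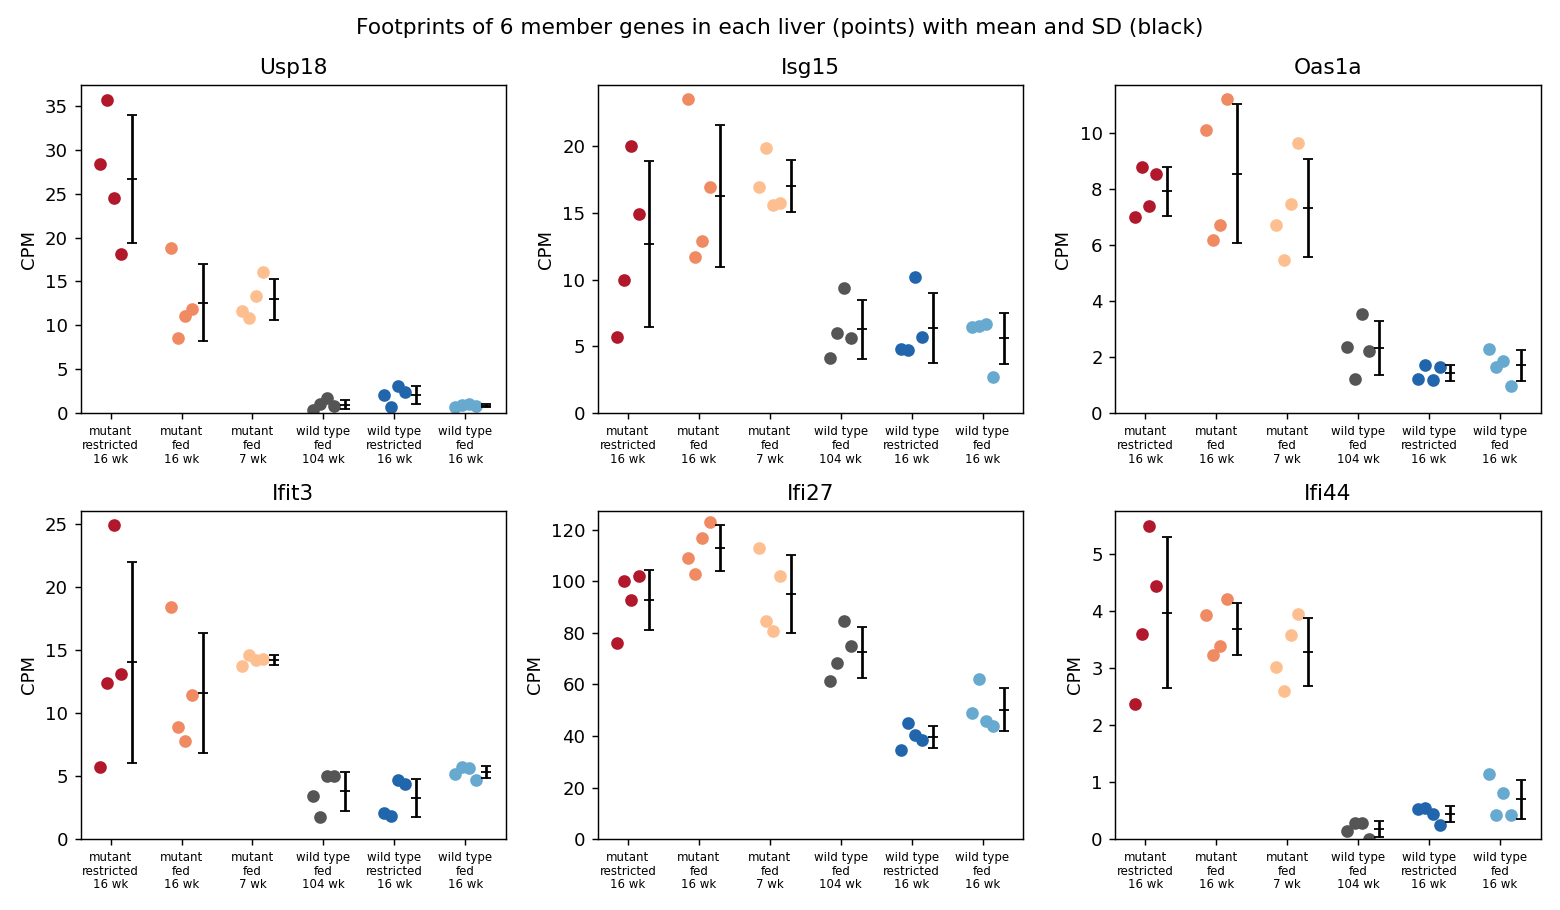
CPM of Usp18, Isg15, Oas1a, Ifit3, Ifi27 and Ifi44 in each of the 24 livers, on linear axes from 0, with 1 point per library, replicates 1 to 4 from left to right, and the mean with its SD in black. Usp18 is above 8 CPM in all mutants and its highest wild-type value is 3.09 CPM, while restricted mutant replicate 1 is the lowest of its group for Isg15 (5.72 CPM) and Ifit3 (5.72 CPM).

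Leaving out 1 library at a time left 13 to 20 members past the threshold. The fewest, 13, came without fed mutant replicate 1, the highest of its group in 23 members. Without that library Oasl2 (adjusted p = 0.111), Ifit2 (0.134), Irf7 (0.055), Mx2 (0.0667), Rtp4 (0.186) and Parp14 (0.148) were no longer called by edgeR. Oas2 had its highest edgeR adjusted p, 0.0638, without fed wild-type replicate 2. Most of these calls were lost without other libraries too, since Ifit2 was not called in 7 of the 8 fits, Rtp4 and Parp14 in 6, Oas2 in 4, Oasl2 and Mx2 in 3 and Irf7 in 1. The other 12 called members passed in each of the 8 fits. When the 8 libraries of these groups were fitted alone, 31 members passed, and the share of all tested genes called in that fit is not given here.

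Restricted mutants were set against restricted wild types to ask whether the difference between genotypes is also seen under restriction. Of the 37 members 22 rose and 0 fell (edgeR, adjusted p under 0.05), where 9.38% of all tested genes rose, 8.85% fell and 18.2% changed. The median log2 change was 1.09, against -0.01 over all tested genes. In 10 members every mutant library was above every wild-type library, which was so for 8.31% of tested genes. Macrophage markers were higher in 8 of 19 cases, with a mean log2 level of 1.12 to 1.40 in restricted mutants, against 0.03 to 0.83 in restricted wild types, and their part in the members' rise was not tested.

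Usp18 had 28.4, 35.6, 24.5 and 18.1 CPM in restricted mutants, against 2.09, 0.758, 3.09 and 2.43 CPM in restricted wild types. The groups were far apart (log2 3.66 ± 0.33, edgeR adjusted p = 3.04e-08). Ifi44 averaged 3.97 ± 1.32 CPM in restricted mutants and 0.437 ± 0.137 CPM in restricted wild types (SD, n = 4 each), a log2 change of 3.14 ± 0.37 (edgeR adjusted p = 1.75e-06). Oas1a averaged 7.93 ± 0.874 CPM in restricted mutants and 1.44 ± 0.282 CPM in restricted wild types (SD, n = 4 each; log2 2.47 ± 0.28, edgeR adjusted p = 9.53e-07). Ifi27 averaged 92.8 ± 11.8 CPM in restricted mutants and 39.6 ± 4.35 CPM in restricted wild types (SD, n = 4 each; log2 1.23 ± 0.14, edgeR adjusted p = 1.16e-06). The groups overlapped for none of these genes.

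Rsad2 had 5.29, 6.52, 9.84 and 7.15 CPM in restricted mutants, against 0.785, 0.758, 2.87 and 0.849 CPM in restricted wild types. All mutants were higher, and the log2 change was 2.44 ± 0.43 (edgeR adjusted p = 0.000298), or 3.16 without restricted wild-type replicate 3. Ifit3 had 5.72, 12.4, 24.9 and 13.1 CPM in restricted mutants, against 2.06, 1.84, 4.73 and 4.37 CPM in restricted wild types, which did not overlap (log2 2.12 ± 0.38, edgeR adjusted p = 0.000426). Ifit1 had 1.98, 7.09, 20.4 and 9.58 CPM in restricted mutants, against 1.28, 1.62, 3.71 and 3.15 CPM in restricted wild types. Here the lowest mutant lay within the wild types, and the log2 change of 2.02 ± 0.54 (edgeR adjusted p = 0.0116) was 1.35 without restricted mutant replicate 3.

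Gbp3 rose by log2 1.56 ± 0.25 (edgeR adjusted p = 8.13e-05), Irf7 by 1.72 ± 0.36, Oas3 by 2.07 ± 0.46, Oasl1 by 2.17 ± 0.50 and Gbp2 by 1.36 ± 0.29. Isg15 had 5.72, 10.0, 20.0 and 14.9 CPM in restricted mutants, against 4.84, 4.76, 10.2 and 5.70 CPM in restricted wild types. These groups overlapped, and the rise was log2 0.99 ± 0.34 (edgeR adjusted p = 0.0441). Irf9 stood at log2 0.53 ± 0.30, Stat2 at 0.17 ± 0.29, Ddx58 at 0.56 ± 0.26 and Zbp1 at 1.22 ± 0.44, with edgeR adjusted p of 0.225, 0.738, 0.139 and 0.0508.

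The count was 14 without restricted mutant replicate 3 and 26 without restricted mutant replicate 1. Without replicate 3, edgeR no longer called Isg15 (adjusted p = 0.187), Ifit1 (0.0644), Ifit2 (0.197), Xaf1 (0.0561), Rtp4 (0.0731), Parp14 (0.133), Oasl2 (0.0896) and Eif2ak2 (0.0931). The highest adjusted p of Oasl2 was 0.0917 and that of Mx2 0.0515, both without restricted wild-type replicate 1, and that of Eif2ak2 was 0.105 without restricted mutant replicate 4. Oasl2 was not called in 6 of the 8 fits that left out a library, Isg15 in 5, Ifit2 and Parp14 in 4, Eif2ak2 in 3, Xaf1 and Mx2 in 2, and Ifit1 and Rtp4 in 1. Oasl2 stood at log2 1.94 without restricted wild-type replicate 4, against 1.31 ± 0.42 with it. With the 8 libraries fitted alone, 10 members passed, and the share of all tested genes called in that fit is not given here either.

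Of the 19 members called in the fed comparison and the 22 called in the restricted one, 17 were called in both. These were 89.5% of the fed and 77.3% of the restricted calls, and the matching share of all tested genes is not given here. The comparisons share no libraries, but both were tested in the same model of the 24 libraries, so the lists are not independent. With only the compared libraries fitted, all 19 fed calls remained, but only 10 of the 22 restricted ones. Those lost included Ifih1, Isg15, Oasl1, Oasl2, Xaf1, Rtp4, Mx2, Parp14 and Ifit2, each among the 17. In the shared model, Irf9 and Oas2 were called in fed mice only. Eif2ak2, Gbp7, Ifit1, Ifit3 and Rsad2 were called in restricted mice only. These lists do not show a difference between diets, since the test of that difference, the genotype by restriction interaction, called 0 of 37 members (edgeR), where it called 0.803% of all genes. DESeq2 also called 0, and 2 members had an unadjusted p under 0.05. Those were Rsad2, whose difference between genotypes was larger under restriction by log2 1.43 ± 0.60 (edgeR adjusted p = 0.299), and Oas2, at -2.08 ± 0.99 (edgeR adjusted p = 0.38). The 13 members called in neither comparison were Bst2, Cmpk2, Ddx58, Dhx58, Dtx3l, Ifi35, Igtp, Irgm1, Mx1, Parp9, Stat2, Trim25 and Zbp1. Among the 16 members with a core response element in the promoter window 6 were called in fed mice and 11 in restricted mice, and among the 11 without one 7 and 6 were called.

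**Figure D3:**
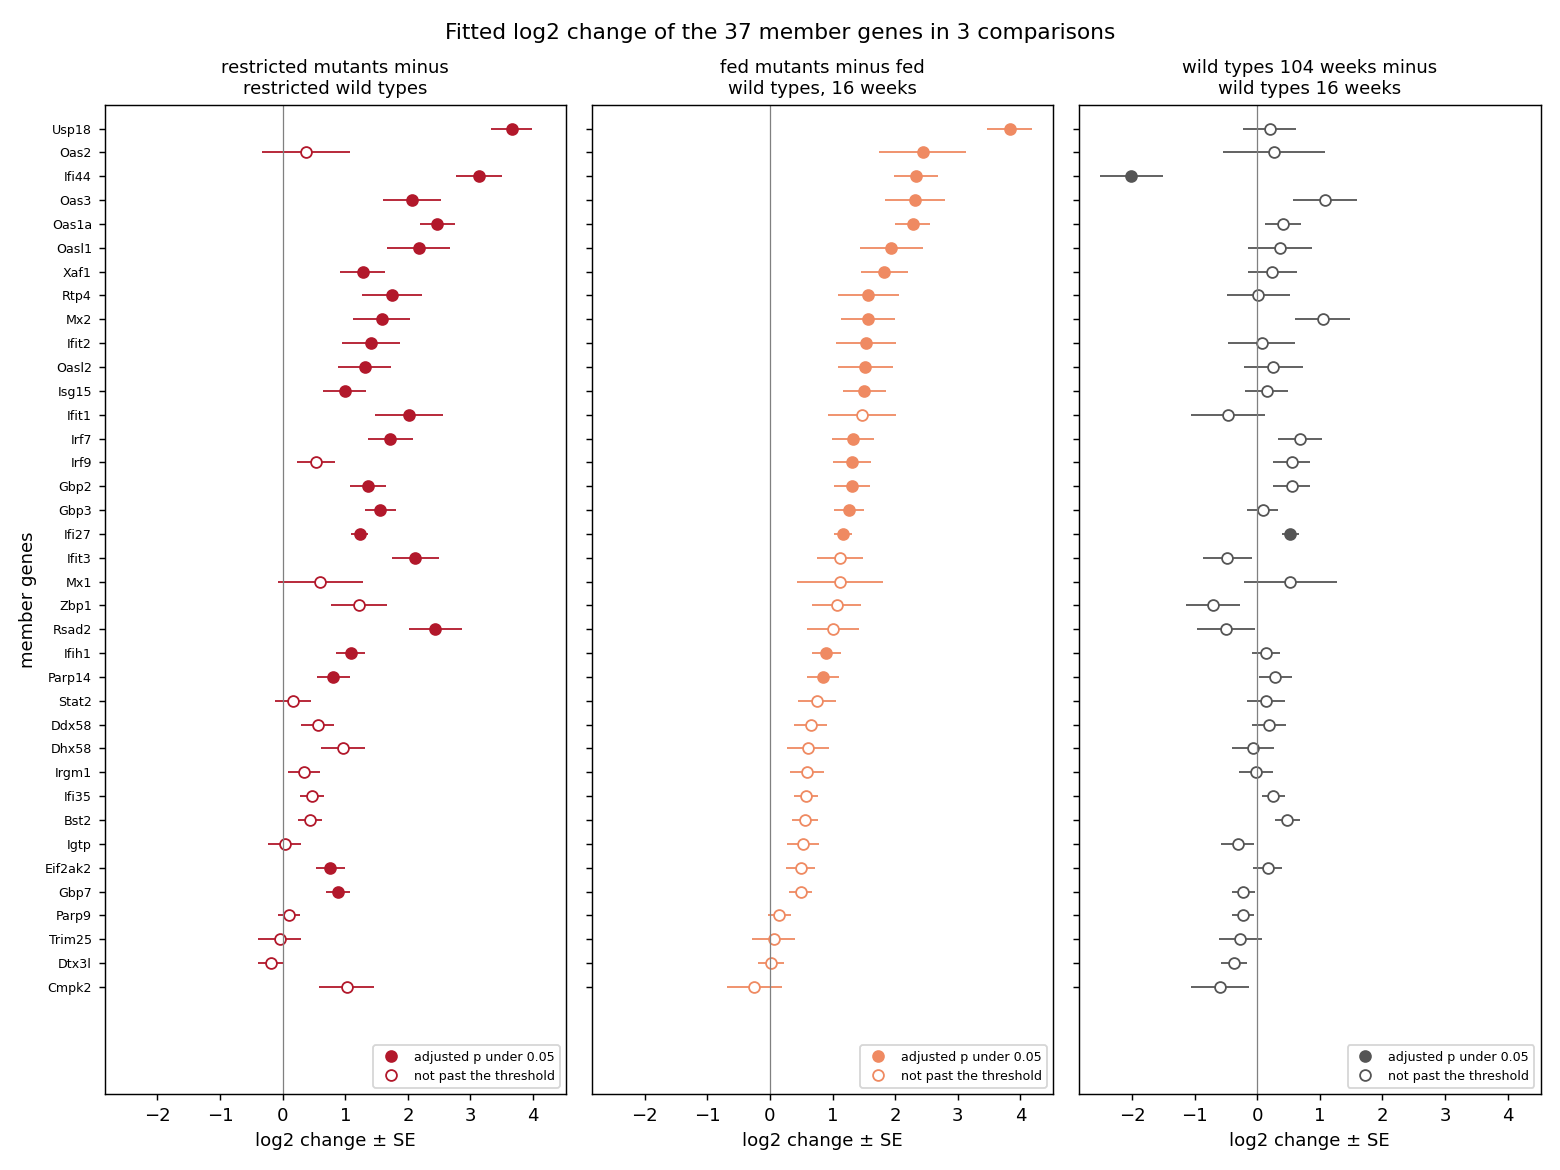
Fitted log2 change ± SE of the 37 members in restricted mutants against restricted wild types (left), fed mutants against fed wild types at 16 weeks (middle) and wild types at 104 weeks against wild types at 16 weeks (right). Filled points have an edgeR adjusted p under 0.05, and genes are in the order of the middle comparison. Filled points number 22, 19 and 2, and the only one left of 0 is Ifi44 in old wild types.

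Old wild types, of 104 weeks, were compared with fed wild types of 16 weeks to ask whether these genes change in ordinary ageing. Of the 37 members 1 rose and 1 fell (edgeR), where 4.75% of all tested genes rose, 4.59% fell and 9.34% changed, and the median log2 change was 0.15. Ifi27 had 61.4, 68.4, 84.8 and 75.0 CPM at 104 weeks, against 48.8, 62.2, 46.0 and 43.7 CPM at 16 weeks. The lowest old liver was just below the highest young one, and the rise was log2 0.53 ± 0.14 (edgeR adjusted p = 0.0163, and 0.0648 without old replicate 3). Ifi44 fell, with 2, 4, 4 and 0 counts at 104 weeks, against 29, 7, 20 and 5 counts at 16 weeks. Every old library was lower, at log2 -2.01 ± 0.50 (edgeR adjusted p = 0.0121, and 0.0606 without young replicate 1).

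Usp18 had 0.427 to 1.73 CPM at 104 weeks, against 0.705 to 1.04 CPM at 16 weeks, and Isg15 stood at log2 0.15 ± 0.35. Oas3 and Mx2 stood at log2 1.09 ± 0.51 and 1.05 ± 0.44 and did not pass (edgeR adjusted p = 0.2 and 0.143). In the same comparison 10 of 19 macrophage markers were higher, with a mean log2 level of 0.47 to 0.78 in old livers, against -0.22 to 0.20 in young ones. The members' mean level was -0.20 to 0.37 in those old livers.

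Fed mutants at 16 weeks were also set directly against wild types at 104 weeks. Of the 37 members 17 rose and 0 fell (edgeR), where 6.42% of all tested genes rose, 6.31% fell and 12.7% changed, and all 37 fitted changes were above 0, with a median of log2 0.76. In 21 members every mutant library lay above every old one, which was so for 9.56% of tested genes. Ifi44 had 3.22 to 4.20 CPM in fed mutants, against 0 to 0.290 CPM in old wild types (log2 4.33 ± 0.45, edgeR adjusted p = 3.62e-07). Usp18 (log2 3.63 ± 0.36), Oas1a (1.87 ± 0.28), Gbp3 (1.18 ± 0.24), Ifi27 (0.64 ± 0.14), Xaf1 (1.58 ± 0.37), Zbp1 (1.77 ± 0.42) and Ifit3 (1.61 ± 0.38) followed, each with an edgeR adjusted p of 0.00672 or less.

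The count was 10 without fed mutant replicate 1, and 11 without old replicate 1 or without old replicate 2. The weakest calls were Oas2, lost in each of the 8 fits that left out a library, and Oasl1, lost in 7, with highest edgeR adjusted p of 0.109 without old replicate 4 and 0.104 without old replicate 1. Ifit1 (0.0941), Rsad2 (0.111), Rtp4 (0.173) and Igtp (0.107) were lost without fed mutant replicate 1, and Ifih1 (0.0677) without fed mutant replicate 4. The fed mutants are also younger, so genotype and age cannot be told apart in this comparison.

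Fed mutants at 16 weeks were compared with mutants at 7 weeks to ask whether the genes move as the mutants age. No member passed (0 of 37, edgeR), where 0.434% of all tested genes changed, and DESeq2 called 0 as well. An unadjusted p under 0.05 was found for 3 members, Oas3 at log2 1.05 ± 0.44, Cmpk2 at -0.96 ± 0.43 and Stat2 at 0.64 ± 0.30. Usp18 had 18.8, 8.54, 11.1 and 11.9 CPM at 16 weeks, against 11.7, 10.8, 13.4 and 16.1 CPM at 7 weeks. Ifit3 had 18.4, 8.91, 7.77 and 11.4 CPM at 16 weeks, against a narrow 13.7, 14.6, 14.2 and 14.3 CPM at 7 weeks. The ages overlapped for both genes.

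No wild types of 7 weeks were part of the design, so the youngest mutants can only be described beside fed wild types at 16 weeks, where age and genotype cannot be told apart. In 28 of 37 members every mutant library of 7 weeks lay above every fed wild type at 16 weeks, as did 9.98% of all tested genes, and in 1 member every library lay below. The median log2 ratio of the members' group means was 1.05. The macrophage level of the mutants at 7 weeks was 0.16 to 0.79, against -0.22 to 0.20 in the fed wild types at 16 weeks, and the members' level was 0.95 to 1.31, against -0.29 to 0.17.

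Restriction went with calls in 3 of 37 members in mutants and 5 of 37 in wild types, shares near those of all tested genes. In wild types 1 member rose and 4 fell (edgeR), where 5.44% of all tested genes rose, 6.71% fell and 12.1% changed, and the median log2 change was -0.15. In mutants 1 rose and 2 fell, where 5.59% of all tested genes rose, 6.04% fell and 11.6% changed, and the median was -0.21. Without TMM scaling 1 rose and 2 fell in wild types, and 1 rose and 1 fell in mutants. Usp18 was the member that rose in each genotype. It averaged 26.6 ± 7.33 CPM in restricted mutants and 12.6 ± 4.38 CPM in fed mutants (SD, n = 4 each; log2 1.09 ± 0.29, edgeR adjusted p = 0.0139), and its highest fed mutant, at 18.8 CPM, was just above the lowest restricted one, at 18.1 CPM. In wild types it averaged 2.09 ± 0.982 CPM under restriction and 0.873 ± 0.142 CPM when fed (SD, n = 4 each; log2 1.26 ± 0.37, edgeR adjusted p = 0.0259), and restricted replicate 2, at 0.758 CPM, lay within the fed range.

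Zbp1 fell in each genotype. It had 1.42, 2.88, 1.84 and 1.67 CPM in restricted mutants, against 5.33, 4.06, 4.71 and 5.67 CPM in fed mutants, and 0.654, 1.73, 0.883 and 0.0606 CPM in restricted wild types, against 1.61, 3.68, 2.88 and 1.16 CPM in fed wild types. The mutant groups did not overlap and the wild-type groups did (log2 -1.33 ± 0.40 and -1.49 ± 0.43, edgeR adjusted p = 0.0284 and 0.0243). Ifi35, a leucine-zipper protein induced by interferon, fell by 0.69 on the log2 scale in mutants and by 0.58 in wild types, with edgeR adjusted p of 0.0188 and 0.0493. Gbp7 (log2 -0.71 ± 0.19) and Gbp3 (-0.80 ± 0.25) fell in wild types.

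None of these 8 calls passed in every fit that left out a library. In mutants the highest edgeR adjusted p was 0.059 for Usp18 and 0.0798 for Ifi35 without restricted mutant replicate 2, and 0.0919 for Zbp1 without restricted mutant replicate 1. In wild types it was 0.0884 for Usp18 without fed replicate 1, 0.101 for Zbp1 without fed replicate 2, and 0.229 for Ifi35, 0.135 for Gbp3 and 0.0547 for Gbp7 without restricted replicate 4. The number of members called ran from 0, without restricted replicate 4, to 6 in wild types and from 1, without restricted mutant replicate 1 or 2, to 3 in mutants. Without restricted mutant replicate 3, edgeR called Parp9 as lower in mutants (log2 -0.62, adjusted p = 0.0257) and did not call Zbp1 (0.0569).

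Restricted mutants were last set against fed wild types at 16 weeks, where genotype and diet differ together. Of the 37 members 21 rose and 0 fell (edgeR), where 14.1% of all tested genes rose, 14.3% fell and 28.4% changed, and the median log2 change was 0.84. In 14 members every mutant library lay above every wild-type library, as did 15.4% of tested genes. Usp18 stood at 26.6 ± 7.33 CPM in restricted mutants and 0.873 ± 0.142 CPM in fed wild types (SD, n = 4 each; log2 4.92, edgeR adjusted p = 4.91e-10). Ifit1 rose by log2 2.03, or 1.36 without restricted mutant replicate 3, and the count was 15 without that library and 25 without restricted mutant replicate 1. Without replicate 3, edgeR did not call Isg15 (adjusted p = 0.0675), Ifit2 (0.0543), Irf9 (0.082), Ddx58 (0.142), Ifih1 (0.144), Gbp3 (0.0613) and Eif2ak2 (0.182), and it called Dtx3l as lower (log2 -0.53, adjusted p = 0.049). Eif2ak2 was not called in 6 of the 8 such fits, with a highest adjusted p of 0.206 without restricted mutant replicate 4, Ifih1 in 5, Irf9 and Ddx58 in 4, Gbp3 in 2, and Isg15 and Ifit2 in 1.

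**Figure D4:**
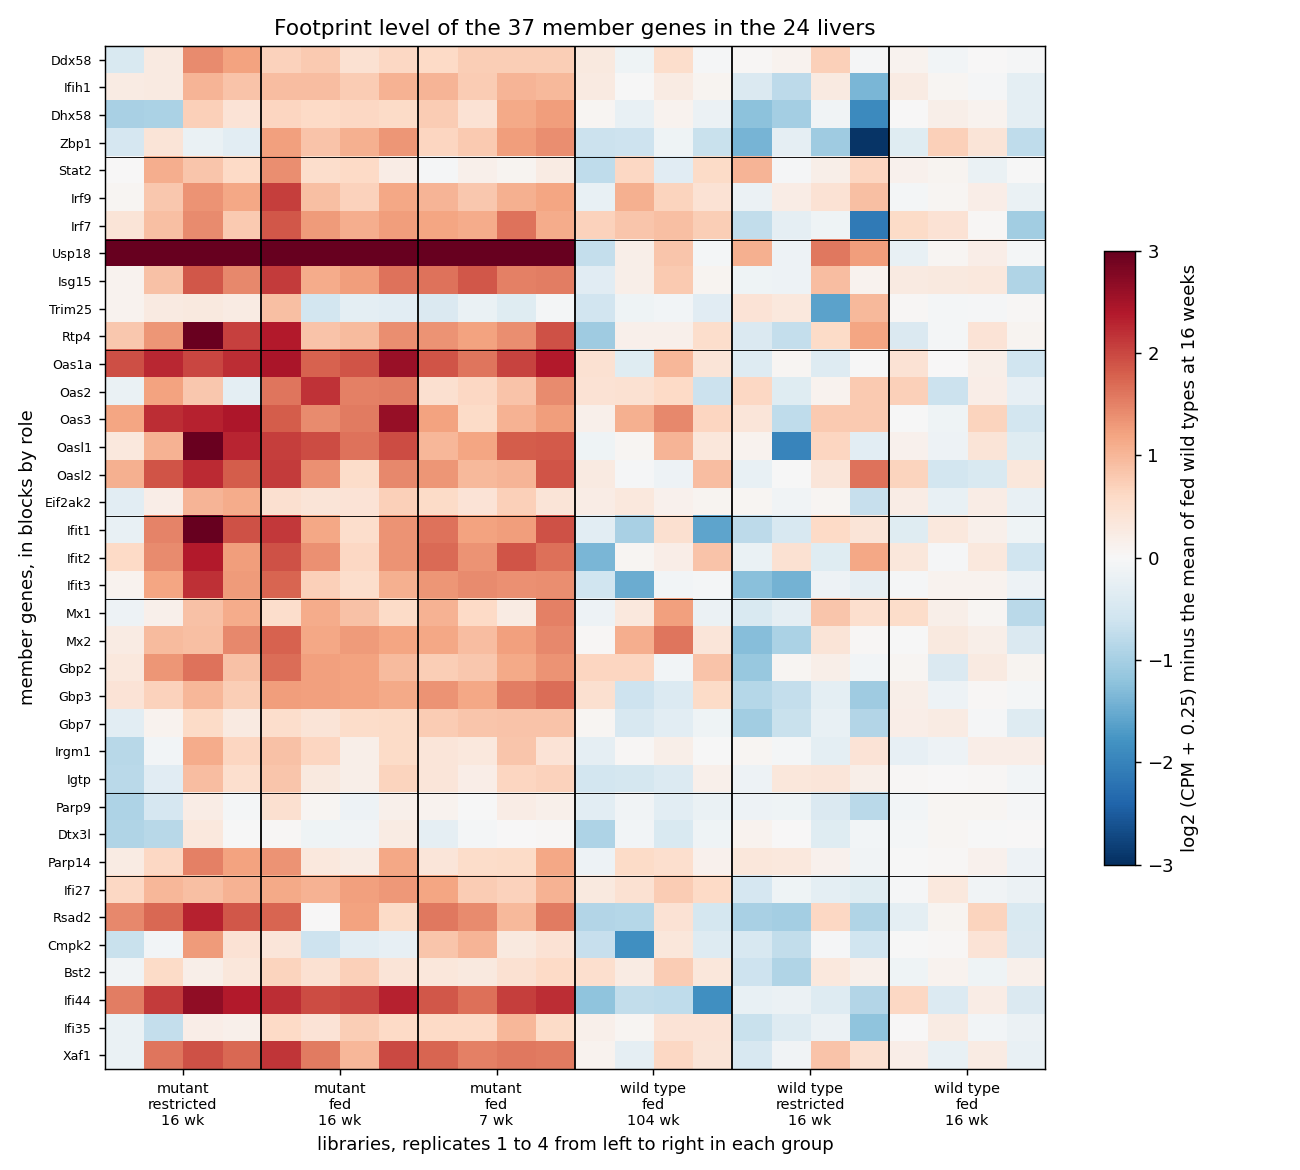
Log2 of CPM plus 0.25 for each of the 37 members (rows, in blocks by role) in the 24 livers (columns, replicates 1 to 4 from left to right in each group), minus the gene's mean in fed wild types at 16 weeks. Red is higher and blue lower, and the colour scale ends at 3 in either direction, which Usp18 passes in the mutants. The mutant columns are red in most rows, with restricted mutant replicate 1 paler than the rest, and the rows of Trim25, Parp9 and Dtx3l stay near white in most libraries.

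The ligands and the upstream machinery were then examined. The 21 interferon genes in the table, of type I and type III together with Ifng of type II, held 28 counts in all 24 libraries. They held 0 in fed mutants at 16 weeks, 12 in restricted mutants and 3 in fed wild types at 16 weeks. Those of restricted mutants lay in replicate 1, apart from 1 count of Ifna2 in replicate 4. Ifng held 4 counts in mutants at 7 weeks and 1 in restricted wild types. None of the 21 genes could be tested, and at this depth a difference between groups was not detectable. Of 18 tested receptor and signalling genes 0 passed in fed mutants against fed wild types (edgeR), where 10.7% of all tested genes changed. An unadjusted p under 0.05 was found for 9 of the 18, and the matching share of all tested genes is not given here. Ifnar1 averaged 14.2 CPM in fed mutants and 14.5 CPM in fed wild types, and Ifnar2 averaged 21.7 CPM in fed mutants and 21.0 CPM in fed wild types.

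Of 16 tested genes that sense nucleic acid or lead to interferon production, 3 rose and 1 fell in fed mutants against fed wild types, where 5.69% of all tested genes rose and 5.04% fell. In restricted mutants against restricted wild types 1 rose and 1 fell, where 9.38% rose and 8.85% fell. Sting1, the adaptor of cytosolic DNA sensing, averaged 2.23 CPM in fed mutants and 1.06 CPM in fed wild types (log2 1.04 ± 0.28, edgeR adjusted p = 0.0164). Ikbke, a kinase that activates interferon regulatory factors, rose by log2 1.29 ± 0.38, and Tlr9, the receptor for unmethylated DNA, by 1.81 ± 0.51. The change of Tlr9 rested on few counts, 68 in fed mutants and 20 in fed wild types. Rnaseh2c, a subunit of the RNase H2 that removes ribonucleotides from DNA, fell by 0.59 on the log2 scale (edgeR adjusted p = 0.0292). In restricted mutants against restricted wild types Ikbke rose by log2 1.70 ± 0.39 and Rnaseh2c fell by 1.06, with edgeR adjusted p of 0.00359 and 0.000135, while Sting1 stood at 0.08 ± 0.27 and Tlr9 at 0.75 ± 0.47 without passing (edgeR adjusted p = 0.867 and 0.286). Sting1 was also higher in wild types at 104 weeks than at 16 weeks (log2 1.07 ± 0.28, edgeR adjusted p = 0.0164).

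Interferon-stimulated genes outside the 37 were described from a further list of 53, of which 49 were tested. It too was chosen with earlier results of these data known. In fed mutants against fed wild types 25 rose and 1 fell, where 5.69% of all tested genes rose and 5.04% fell, and the median log2 change was 0.82. In restricted mutants against restricted wild types 24 rose and 0 fell, where 9.38% rose and 8.85% fell, and the median was 0.71. Oas1g, a close paralog of Oas1a, rose by log2 2.14 ± 0.31 in fed and 2.24 ± 0.31 in restricted mutants. Ly6e, a surface protein that blocks virus entry, averaged 194 CPM in fed mutants and 74.9 CPM in fed wild types (log2 1.37 ± 0.21, edgeR adjusted p = 5.54e-05). Uba7 and Ube2l6 encode the enzymes that load ISG15. Uba7 rose in fed mutants by log2 1.21 ± 0.22, and Ube2l6 fell with restriction by 1.09 on the log2 scale in mutants and by 1.06 in wild types, with edgeR adjusted p of 1.25e-05 and 1.99e-05.

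The interferon gamma list, genes mainly induced by the type II cytokine, had 22 tested genes. In fed mutants against fed wild types 9 rose and 0 fell, at a median of log2 0.67, where 5.69% of all tested genes rose and 5.04% fell. In restricted mutants against restricted wild types 7 rose and 0 fell, at a median of 0.50, where 9.38% rose and 8.85% fell. In restricted mutants against fed mutants 0 rose and 11 fell, at a median of log2 -0.75, where 5.59% rose and 6.04% fell. In restricted wild types against fed wild types 0 rose and 7 fell, at a median of -0.48, where 5.44% rose and 6.71% fell. Gbp11 averaged 17.7 CPM in restricted mutants and 67.9 CPM in fed mutants (log2 -1.93 ± 0.26, edgeR adjusted p = 1.52e-05), and 7.51 CPM in restricted wild types and 43.1 CPM in fed wild types (log2 -2.53 ± 0.27, edgeR adjusted p = 7.59e-07). Gbp4 and Gbp8 fell in the same comparisons, by 1.61 and 1.60 in mutants and by 2.07 and 1.90 in wild types on the log2 scale. Psmb8, an immunoproteasome subunit, rose in fed mutants by log2 1.01 ± 0.15 (edgeR adjusted p = 4.58e-05) and fell under restriction in mutants by 0.88 on the log2 scale (edgeR adjusted p = 0.000213).

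Markers of the other cells that a liver holds were read beside the members. Of 12 T and natural killer cell markers 1 was abundant enough to test, and the 12 held 944 counts in all 24 libraries. The B and plasma cell markers were highest in old wild types, at a mean log2 level of 3.22 to 4.63, against -0.70 to 0.61 in fed wild types at 16 weeks, and stood at 0.96 to 2.19 in fed mutants at 16 weeks. Of 8 neutrophil markers 4 were tested, and their level was 0.62 to 1.46 in fed mutants at 16 weeks, against -0.27 to 0.21 in fed wild types. They did not move together, since Ly6g was lower, at 0.571 to 1.75 CPM in fed mutants against 1.80 to 5.71 CPM in fed wild types. S100a8 and S100a9 were near the floor, with 10 and 16 counts in the fed wild types of 16 weeks. Of 8 dendritic cell markers 3 were tested, of which Bst2 is itself a member. The endothelial list stood at 0.00 to 0.36 in fed mutants at 16 weeks, against -0.20 to 0.22 in fed wild types. Stellate cell markers stood at 0.49 to 0.90 in fed mutants at 16 weeks, against -0.25 to 0.26 in fed wild types. Of the 8 markers 3 were called higher there, where 5.69% of all tested genes rose. Among them Lum averaged 18.3 CPM in fed mutants and 6.76 CPM in fed wild types. Dcn averaged 213 CPM in fed mutants and 124 CPM in fed wild types, and Lrat 9.73 CPM in fed mutants and 4.15 CPM in fed wild types. In restricted mutants against restricted wild types 2 of 8 were called higher, Col1a1 and Col3a1, where 9.38% of all tested genes rose. The list stood at 0.40 to 1.15 in restricted mutants, against -0.54 to 0.78 in restricted wild types. Cholangiocyte markers stood at 0.38 to 2.42 in restricted mutants, against -0.17 to 0.96 in restricted wild types. In that comparison 1 of 5 was called higher, Krt19, where 9.38% of all tested genes rose. Krt19 had 32.2 CPM in restricted mutant replicate 3 and 1.42 to 2.03 CPM in the other restricted mutants, against 0.325 to 1.02 CPM in restricted wild types. The part of these cells in the members' levels was not tested.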

How the data were processed

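The authors deposited raw whole-number counts for each gene in each library, judging by the values. The submitters' processing notes name build GRCm38.p6 and, in no stated order, Bowtie2 2.4.2, cutadapt 3.4, Subread 1.6.4, featureCounts, Trimmomatic 0.39, and STAR in versions 2.7.8a and 2.7.0f. Which tool made the counts, and how reads of several genes or strands were handled, is not given in the sources used here. The length column of the gene table was not used for levels, and the table of open reading frames was not used here because it names no genes.

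Counts of all 22429 genes were tested with edgeR 4.0.16 in R 4.3.3. The filterByExpr rule over 6 groups kept 12211 genes. After TMM scaling, 1 quasi-likelihood model with robust estimation and a term per group covered the 24 libraries, with 18 residual degrees of freedom and a biological coefficient of variation of 24.2%. Adjusted p is the Benjamini-Hochberg value over all genes tested of that 2-sided test, and the threshold was 0.05. The SE was obtained as the absolute log2 change over the root of F. CPM use TMM-scaled library sizes, and log2 CPM a prior count of 2. Total counts of 13366558 to 27084259 per library set the counting error.

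The 37 members and all lists were chosen with earlier results of these data known. Named genes were 13 followed genes, of which 1 is not reported here, the 8 members with the smallest adjusted p and up to 5 genes of each other list per comparison, and further members to account for all 37. The fit was tested on simulated data. For fed mutants against fed wild types, with 12211 genes, it recovered 61.1% of 108 genes changed by log2 1 and 92.4% of 92 changed by log2 2, with 4 false among 155 calls. The changed genes were drawn only from those with a mean of at least 1 CPM, so the recovery does not describe genes below that level. Alternatives were DESeq2 1.42.0, other scalings and filters, a replicate block, no robust estimation, the compared libraries alone and leaving out each library. Replicate numbers are shared between groups, but the labels give them no meaning.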

Additional observations from a re-analysis of the deposited data

Results flagged for a closer look

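In each member and group the highest or lowest of the 4 libraries was checked for a gap to the rest that was large relative to the group's range. Of 222 sets of 4 libraries 12 stood out, where chance alone gives about 1 in 20, or 11.1. In fed mutants at 16 weeks these were Oas2 in replicate 2, at 1.53 CPM with the others between 0.875 and 0.951, Mx2 in replicate 1, at 3.17 CPM with the others between 2.00 and 2.19, and Trim25 in replicate 1, at 137 CPM with the others between 49.6 and 59.5. In mutants at 7 weeks they were Irf7 in replicate 3 at 7.14 CPM (others 4.95 to 5.17), Ifi35 in replicate 3 at 35.0 CPM (others 26.3 to 26.6) and Ddx58 in replicate 1 at 23.4 CPM (others 25.6 to 25.8).

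In wild types at 104 weeks Zbp1 in replicate 3 was at 1.94 CPM (others 1.24 to 1.31) and Igtp in replicate 4 at 31.8 CPM (others 19.5 to 21.4). In restricted wild types replicate 3 was highest for Rsad2, at 2.87 CPM (others 0.758 to 0.849), and for Ddx58, at 25.4 CPM (others 14.9 to 16.4). In fed wild types at 16 weeks replicate 4 was lowest for Isg15, at 2.73 CPM (others 6.42 to 6.68), and for Igtp, at 27.2 CPM (others 29.0 to 29.4). No member's response to restriction differed between genotypes past the threshold.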

How the results depend on the processing

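Of 1976 values of the followed genes under other settings, 1893 stayed on their side of the threshold, 52 lost and 31 gained a call, and 0 turned direction. Fitting the 8 compared libraries alone gave 31 called members in place of 19 for fed mutants against fed wild types, 10 in place of 22 for restricted mutants against restricted wild types and 0 in place of 5 for restriction in wild types. In that last comparison 3 were called without TMM scaling and 3 without a filter on low counts. The shares of all tested genes called under these other settings are not given here. Without 1 library at a time the counts ran from 14 to 26 for restricted mutants against restricted wild types, 10 to 16 for fed mutants against old wild types, 1 to 2 for old against young wild types, 0 to 6 for restriction in wild types and 1 to 3 for restriction in mutants. The members' median change under restriction in mutants ran from -0.40 to 0.02 and the interaction median from -0.19 to 0.16 in such fits. The longer promoter motif was found in 9 members in place of 16. The cause of these shifts was not tested, apart from the smaller number of libraries by construction. Without TMM the median of all genes moved to log2 0.11 for fed mutants against fed wild types and 0.18 for restricted mutants against fed wild types, with member medians of 1.22 and 1.00. With the replicate number as a block 19 members were called in fed mutants against fed wild types and 22 in restricted ones, with Parp14 and Ifit2 lost in each. Libraries of the same number did not deviate together, with correlations from -0.186 to 0.25 over 60 pairs, and 7 of 24 libraries correlated best with their own number. Oas2, with 0 to 29 counts per library, and Mx1, with 0 to 16, are limited by depth.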
